A study of Rattus norvegicus with 9 samples.

Results

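The potassium channel genes of rat dorsal root ganglia (DRGs) were taken as the rows of the expression table whose symbol starts with Kcn, the prefix shared by genes for potassium channel subunits and for auxiliary subunits of these channels. The table held 94 such genes among 20413, and 88 of them had a mean of at least 0.1 FPKM (fragments counted per kilobase of transcript and adjusted for library size) over the 9 libraries. These 88 were tested among 17187 genes that met the same minimum. Kcna7, Kcne1, Kcnh3, Kcnk15, Kcnmb3 and Kcnu1 lay under it and were not tested. The means nearest to the minimum were 0.114 FPKM for Kcns2 and 0.119 FPKM for Kcna10 above it and 0.0789 FPKM for Kcna7 below it.

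RNA-Seq was run on the ipsilateral L4–6 DRGs of male Sprague Dawley rats, collected on day 10. The Sham group, labelled Con, wore an ankle ring that left blood flow open under the same anesthesia. The chronic post-ischemia pain (CPIP) group went through ischemia and reperfusion of one hind paw, and the CPIP+EA group received the same injury and electroacupuncture (EA) on both hind limbs once daily over 10 days. Each group had 3 libraries, labelled as replicates, and RNA of as many rats went into them. The sources used here do not state that each library was made from 1 rat, so p-values measure the spread between libraries, which may be partly technical. None of the 3 groups received needles without current.

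Potassium channels hold the resting potential of sensory neurons, repolarize the action potential and limit repetitive firing. Voltage-gated (Kv) channels assemble from alpha subunits, and silent Kv subunits form no channel of their own but alter the channels of the Kv2 family. Kv beta subunits attach to Kv1 channels, KChIP proteins to Kv4 channels and BK beta subunits to the large-conductance calcium-activated channel, while inward rectifiers and tandem-pore channels carry background currents. Lower expression of several Kv genes in DRGs is known from models of nerve injury.

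The highest level belonged to Kcnab2, a Kv beta subunit, with a mean of 155 FPKM and a range of 117 to 181 over the 9 libraries. Kcna1 (84.1 FPKM) and Kcna2 (79.9 FPKM), the main axonal Kv1 alpha subunits, came next, and their ranges overlapped, whereas the lowest library of Kcnab2 lay above the highest of Kcna1. Kcnip3, a KChIP that also acts as a calcium-regulated repressor of transcription, followed at 52.0 FPKM and Kcnd1, a Kv4 alpha subunit of A-type currents, at 42.4 FPKM. Every library of Kcna2 was above every library of Kcnip3, which spanned 39.0 to 67.4 FPKM and overlapped Kcnd1 at 32.7 to 50.1. Other abundant members were Kcnj10 (32.7 FPKM), an inward rectifier of satellite glia, Kcnh2 (28.6 FPKM), an ERG channel, Kcnk1 (23.8 FPKM), a tandem-pore channel, and Kcnt1 (16.4 FPKM), a sodium-activated channel. Of the 88 members, 1 had a mean of at least 100 FPKM, 9 lay from 30 to 100, 15 from 10 to 30, 46 from 1 to 10 and 17 below 1 FPKM. The 10 most abundant members held 54.6% of the FPKM summed over all members.

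**Figure D1:**
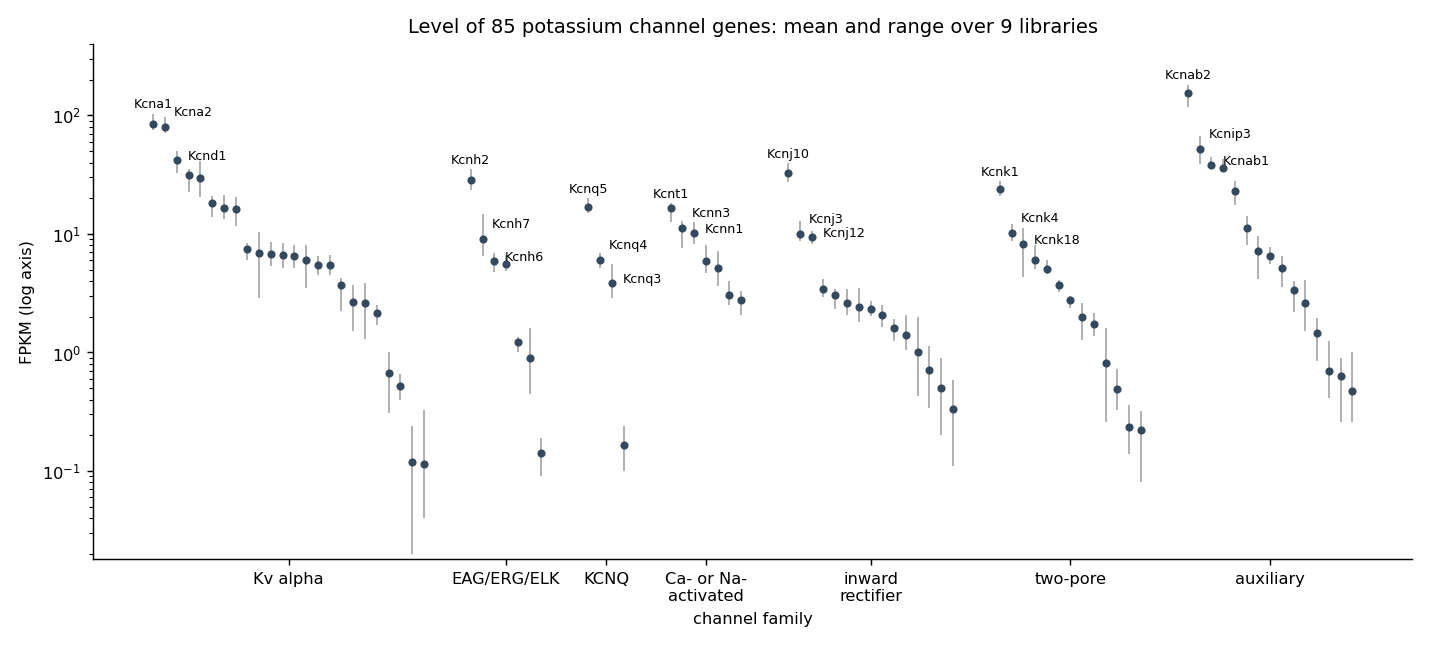
Level of 85 of the potassium channel genes, in FPKM on a log axis, grouped by channel family (two-pore stands for the tandem-pore channels). Points are means and lines span the lowest to the highest of the 9 libraries (a lowest value of 0 is drawn at the lower edge), with the most abundant members named and Kcnab2 highest at 155 FPKM.

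The summed FPKM of a library was between 445647 and 482940. Neuron markers were present in every library, and the sum of 10 of them was 11089 to 13130 FPKM in Sham, 10969 to 11699 in CPIP and 10458 to 12778 in CPIP+EA, with none at 0. Between CPIP and Sham, 6 of the 10 were lower and 4 higher, and 0 passed the call defined below (limma). At an unadjusted p under 0.05 (limma), Rbfox3 (log2 difference -0.34) and Snap25 (-0.24) were lower and Tubb3 (0.41) higher. The libraries of these genes did not overlap between CPIP and Sham, nor did those of Nefl (-0.245), Nefm (-0.30) and Prph (0.28). The sum of 5 satellite glia markers was 3564 to 3687 FPKM in Sham, 3733 to 4069 in CPIP and 3957 to 4151 in CPIP+EA, and most of it was Apoe. Of these 5, 2 were lower and 3 higher in CPIP than in Sham, with 0 at an unadjusted p under 0.05 (limma), and Fabp7 was higher and Glul lower in CPIP+EA than in CPIP at that p. Of 4 fibroblast markers, 4 were lower in CPIP than in Sham, 1 of them at that p. Their sum was 768 to 1040 FPKM in Sham, 654 to 862 in CPIP and 428 to 881 in CPIP+EA. All 5 smooth muscle and pericyte markers (median log2 difference -0.12) and all 3 listed erythroid markers (-0.74) were lower in CPIP than in Sham. All 5 Schwann cell markers (0.086) and all 5 skeletal muscle markers (1.13) were higher. These 4 lists had 0 markers at that p (limma). Sums of 5 Schwann cell markers ranged from 4632 FPKM in CPIP+EA replicate 1 to 11786 in CPIP replicate 1, and 5 of 5 were lower in CPIP+EA than in CPIP (median log2 difference -0.48), Prx at that p. In CPIP replicate 2, 5 skeletal muscle markers summed to 123 FPKM against 7.47 to 37.6 elsewhere. Sham replicate 1 was the highest library for 22 of the 88 members (25%), against 10.8% of all genes tested, and had the highest neuron sum. CPIP+EA replicate 3 also stood apart. Its 5 neutrophil markers summed to 536 FPKM against 27.7 to 215 in the other libraries, and it was the lowest library for 33 of the 88 members (37.5%), against 14.1% of all genes tested. Its 3 listed erythroid markers summed to 2325 FPKM against 244 to 1393, and its neuron sum was the lowest of the 9. The part of these markers in the results was not tested, and values without this library are given where a result rests on it. In bulk ganglia, fewer cells of a type and less RNA per cell cannot be told apart.

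The first comparison asks which channel genes differed after ischemia and reperfusion. In the CPIP group, the DRGs had lower levels of Kcnh7, Kcna2, Kcns3, Kcns1 and Kcnip3 and a higher level of Kcnmb4 than in the Sham group, with libraries of the groups that did not overlap. The CPIP mean was 0.594 times the Sham mean for Kcnh7 and 1.41 times for Kcnmb4. None of the 88 members passed the call of an adjusted p under 0.01 with a fold of at least 1.5 (limma, Benjamini-Hochberg over all genes tested), which 0.355% of all genes passed. At an unadjusted p under 0.05 there were 16 members, 12 lower and 4 higher, against 8.66% of all genes (4.06% lower and 4.61% higher). At an adjusted p under 0.05 without a fold limit there were 2, Kcnh7 and Kcna2, both lower, against 0.71% of all genes (0.0815% lower and 0.628% higher). The libraries did not overlap for 21 members, 17 lower and 4 higher, against 15.9% of all genes (7.9% lower and 7.98% higher). The log2 difference was below 0 for 65 members (73.9%), against 52.1% of all genes, with a median of -0.082 over the members and -0.006 over all genes. Summed over the 88 members, the 3 Sham libraries held 1220, 1149 and 1127 FPKM and the 3 CPIP libraries 1019, 1022 and 1039 FPKM, with no overlap between the groups. The count of 16 was 10 without Sham replicate 1, 9 without CPIP replicate 1 and 10 without CPIP replicate 3. The count of 2 was 0 without any single Sham or CPIP library or CPIP+EA replicate 2, 1 without CPIP+EA replicate 1 and 4 without CPIP+EA replicate 3.

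**Figure D2:**
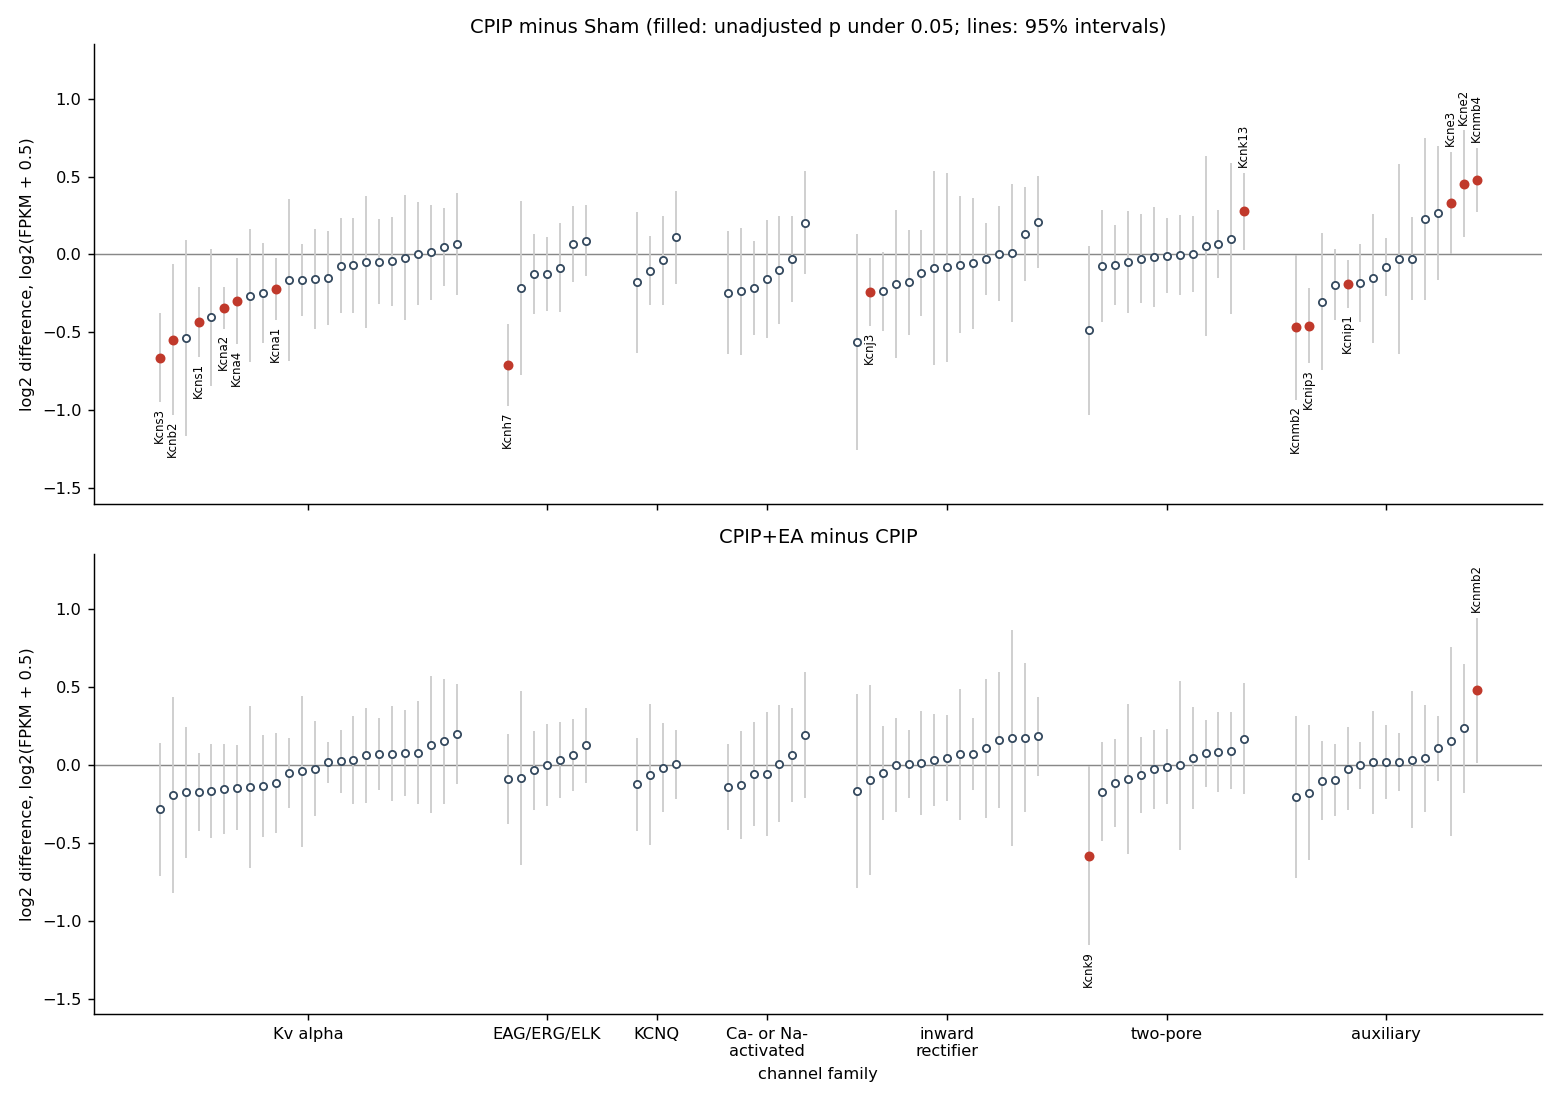
Difference of 85 of the members in log2(FPKM + 0.5) between CPIP and Sham (top) and between CPIP+EA and CPIP (bottom), by channel family (two-pore stands for the tandem-pore channels). Points are estimates and lines 95% intervals of limma; filled points have an unadjusted p under 0.05, 15 of those drawn at the top and 2 at the bottom.

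Kcnh7 encodes an ERG-type channel, whose slow deactivation damps firing. It had 11.1, 11.9 and 14.7 FPKM in the Sham libraries, 8.20, 6.54 and 7.62 in the CPIP group and 7.76, 7.24 and 7.22 in the CPIP+EA group. All 3 Sham libraries were above all 6 others. On the log2(FPKM + 0.5) scale CPIP was lower than Sham by a difference of -0.71 (SE 0.12, 95% interval -0.97 to -0.45, limma adjusted p = 0.0306), and the adjusted p was between 0.0248 and 0.116 across the settings tried. In the RefSeq annotation Kcnh7 shares coordinates with Gca, and whether counting used the strand is not given in the sources used here. Gca had 13.7, 17.2 and 18.1 FPKM in Sham and 16.5, 16.8 and 12.3 in CPIP, so its groups overlapped.

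Kcna2, which carries low-threshold Kv1 current along myelinated axons, had 93.9, 96.3 and 88 FPKM in Sham, 75.3, 70.7 and 73.1 in the CPIP group and 72.6, 77.8 and 71.2 in the CPIP+EA group. Its Sham libraries were the 3 highest of the 9. The difference between CPIP and Sham was -0.34 (SE 0.059, limma adjusted p = 0.0391, 0.0359 to 0.186 across the settings tried). Its SD was 4.29 FPKM in Sham and 2.28 FPKM in CPIP (n = 3).

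Kcns3 and Kcns1 are silent subunits that modify Kv2 channels. Kcns3 had 40.9, 40.0 and 36.9 FPKM in Sham, 26.3, 20.7 and 27.4 in the CPIP group and 25.6, 28.7 and 21.6 in the CPIP+EA group. The lowest Sham library was above the highest library of either other group, and the CPIP mean was 0.631 times the Sham mean (log2 difference -0.66, SE 0.13, limma adjusted p = 0.0566, 0.0337 to 0.217 across the settings). Kcns1 had 21.32, 21.45 and 17.98 FPKM in Sham, 16.0, 13.7 and 14.8 in the CPIP group and 13.7, 13.2 and 16.0 in the CPIP+EA group, again without overlap with Sham. Its log2 difference between CPIP and Sham was -0.435 (SE 0.10, limma adjusted p = 0.122, 0.073 to 0.4 across the settings).

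Kcnip3 had 67.4, 58.1 and 64.4 FPKM in Sham, 45.9, 48.3 and 43.5 in the CPIP group and 51.0, 50.3 and 39.0 in the CPIP+EA group. All Sham libraries were higher than all others. The log2 difference between CPIP and Sham was -0.46 (SE 0.11, limma adjusted p = 0.125, 0.022 to 0.386 across the settings), and the adjusted p was 0.022 without CPIP+EA replicate 3. Kcnmb4, the neuronal BK beta subunit that slows the gating of the channel, went the other way with 8.03, 8.25 and 9.54 FPKM in Sham, 11.2, 12.4 and 13.0 in the CPIP group and 12.8, 14.2 and 12.4 in the CPIP+EA group. The highest Sham library lay below the lowest of the other 6, and the log2 difference between CPIP and Sham was 0.48 (SE 0.091, limma adjusted p = 0.0569, 0.0526 to 0.244 across the settings).

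**Figure D3:**
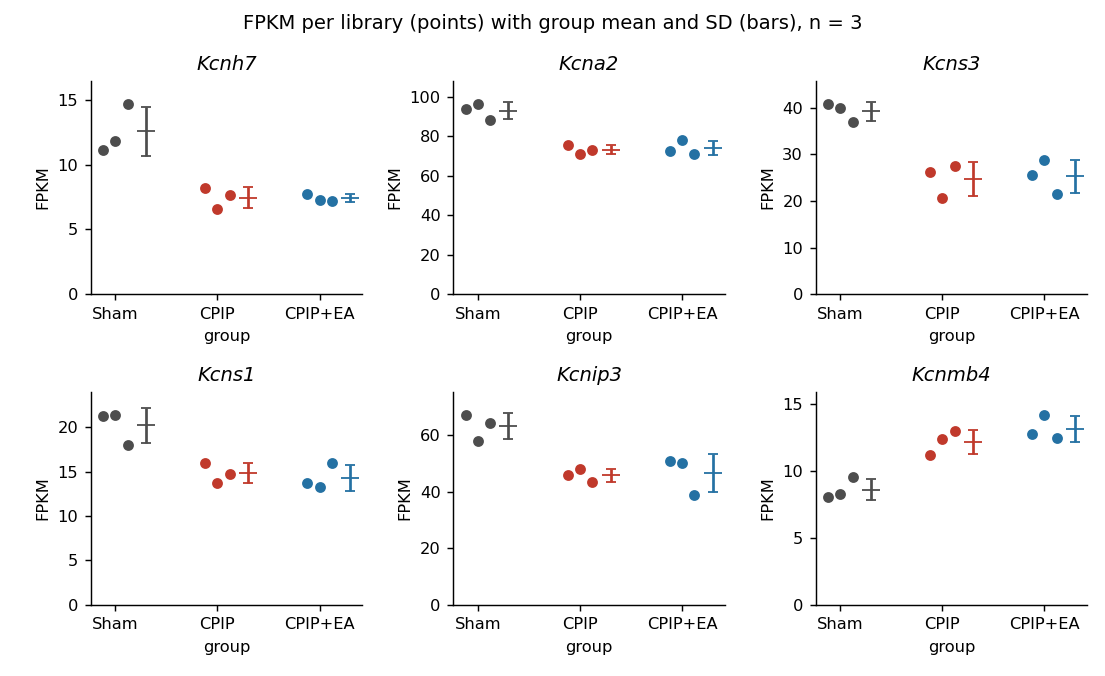
FPKM of Kcnh7, Kcna2, Kcns3, Kcns1, Kcnip3 and Kcnmb4 in each of the 9 libraries (points) with the group mean and SD (bars, n = 3), on axes that start at 0. In each panel the 3 Sham libraries are separate from the 6 CPIP and CPIP+EA libraries, which overlap each other. The genes were picked for small p-values between CPIP and Sham (limma), and both other groups are set against the same Sham libraries.

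The 4 members with the smallest p-values between CPIP and Sham are shown with the 250 bases before their start in RefSeq (build GRCr8), since they are the genes whose transcripts differed most clearly. The regions are chr3:68230672-68230921 on the minus strand for Kcnh7, chr2:197393280-197393529 on the plus strand for Kcna2, chr6:39584106-39584355 on the minus strand for Kcns3 (the first of 2 listed starts) and chr7:54005102-54005351 on the minus strand for Kcnmb4. Sequences run 5′ to 3′ toward the gene, and capitals mark the GC box, GGGCGG or its reverse complement CCGCCC:
Kcnh7: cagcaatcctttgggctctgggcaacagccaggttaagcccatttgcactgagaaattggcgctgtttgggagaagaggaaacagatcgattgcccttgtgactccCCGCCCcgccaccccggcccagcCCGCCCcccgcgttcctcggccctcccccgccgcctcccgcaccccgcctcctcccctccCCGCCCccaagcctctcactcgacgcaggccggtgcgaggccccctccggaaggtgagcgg
Kcna2: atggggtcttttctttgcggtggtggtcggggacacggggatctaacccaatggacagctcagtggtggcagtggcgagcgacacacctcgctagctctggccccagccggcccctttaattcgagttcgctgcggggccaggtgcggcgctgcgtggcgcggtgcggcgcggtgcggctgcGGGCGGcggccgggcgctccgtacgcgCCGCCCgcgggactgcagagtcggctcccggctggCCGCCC
Kcns3: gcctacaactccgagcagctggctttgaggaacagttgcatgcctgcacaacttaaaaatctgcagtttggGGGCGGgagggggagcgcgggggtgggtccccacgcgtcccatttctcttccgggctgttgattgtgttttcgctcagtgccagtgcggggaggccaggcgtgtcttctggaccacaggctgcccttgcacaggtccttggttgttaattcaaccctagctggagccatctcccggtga
Kcnmb4: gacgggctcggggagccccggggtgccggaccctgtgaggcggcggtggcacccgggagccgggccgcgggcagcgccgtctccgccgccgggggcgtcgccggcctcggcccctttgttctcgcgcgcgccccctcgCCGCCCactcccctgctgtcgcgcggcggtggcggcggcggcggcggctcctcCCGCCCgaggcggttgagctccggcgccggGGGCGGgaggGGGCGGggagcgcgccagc
The GC content of these windows was 69.2% for Kcnh7, 72.4% for Kcna2, 59.2% for Kcns3 and 84.4% for Kcnmb4, against a median of 51.2% over 33469 promoters of this length and 60.8% over the 67 promoters listed for 61 of the members. A GC box was found on either strand in 33 of the 67 member promoters (49.3%) and in 30.5% of all promoters. CCAAT or ATTGG was found in 16 member promoters (23.9%) and in 34.0% of all, among them Kcnh7 and Kcna2, and TATAAA or TTTATA in 2 (2.99%) against 12.9%. A match of letters is a description of the window and not a binding site. The lower and the higher genes both carried GC boxes, 3 each in Kcnh7 and Kcna2, 1 in Kcns3 and 4 in Kcnmb4.

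Among the 26 Kv alpha members tested, 22 were lower and 4 higher in CPIP than in Sham, with a median log2 difference of -0.16, and the 7 with an unadjusted p under 0.05 were all lower. Over all genes, 52.1% were below 0 and 8.66% had such a p, 4.06% lower. Kcnb2, a Kv2 subunit that carries delayed rectifier current, had 3.09, 3.37 and 3.84 FPKM in Sham, 2.56, 1.99 and 2.04 in the CPIP group and 2.59, 2.69 and 1.30 in the CPIP+EA group (CPIP minus Sham -0.55 on the log2 scale, limma adjusted p = 0.499). Its CPIP and CPIP+EA libraries were below all Sham libraries, and CPIP+EA replicate 3 was the lowest. The 10 silent Kv members summed to 98.1, 94.0 and 92.6 FPKM in Sham, 71.9, 63.4 and 75.1 in the CPIP group and 71.3, 73.4 and 60.1 in the CPIP+EA group, and 8 of the 10 were lower in CPIP. Most of this sum came from Kcns3 and Kcns1, while Kcng4, another silent subunit, ranged from 4.52 to 6.16 FPKM in the Sham group and from 4.89 to 5.67 in the CPIP group. Kcng1 is named because of its values and had 10.4, 7.20 and 9.44 FPKM in Sham and 6.09, 5.63 and 6.26 in CPIP, without overlap (limma adjusted p = 0.681).

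Of 7 Kv1 members tested, 6 were lower in CPIP, and Kcna2, Kcna1 and Kcna4 had an unadjusted p under 0.05, against 52.1% of all genes below 0 and 8.66% at that p (4.06% lower). Kcna1 had 103, 92.9 and 81.9 FPKM in Sham and 83.4, 78.8 and 75.2 in CPIP. Its groups overlapped, since the lowest Sham library was below the highest CPIP library, and the log2 difference was -0.22 (limma adjusted p = 0.517), and -0.14 without Sham replicate 1. Kcna4, an A-type Kv1 subunit of small neurons, had 8.10, 7.18 and 7.03 FPKM in Sham, 5.55, 6.31 and 5.97 in the CPIP group and 6.6, 7.25 and 5.18 in the CPIP+EA group, so that only CPIP was apart from Sham (-0.30, limma adjusted p = 0.517). Kcna6, which joins Kcna1 and Kcna2 in axonal channels, had overlapping groups, from 17.3 to 19.9 FPKM in Sham and from 17.2 to 18.8 in CPIP. The partner subunit Kcnab2 was at 181.32, 172.18 and 162.55 FPKM in Sham and 149.86, 150.02 and 154.16 in CPIP (-0.18, limma adjusted p = 0.771) and did not overlap, whereas Kcnab1 did. Kcnab2 shares coordinates with Nphp4, which had 3.33 FPKM on average.

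Kv4 channels carry A-type current with KChIP proteins. The 3 Kv4 alpha members had log2 differences between CPIP and Sham of -0.25 to -0.047, and 1 of them, Kcnd3, had groups that did not overlap, with 18.2, 17.1 and 20.4 FPKM in Sham and 13.1, 17.0 and 16.8 in CPIP. All 4 KChIP genes had a log2 difference below 0, Kcnip2 by -0.028 with a CPIP mean FPKM of 1.02 times that of Sham, and Kcnip3, Kcnip1 and Kcnip4 had no overlap with Sham. Over all genes, 52.1% were below 0 and 15.9% had no overlap, 7.9% lower. The KChIP genes summed to 134, 134 and 137 FPKM in Sham, 108, 117 and 104 in the CPIP group and 114, 114 and 100.87 in the CPIP+EA group. Kcnip1 had 36.8, 42.9 and 38.5 FPKM in Sham and 33.0, 35.7 and 34.7 in CPIP (-0.19, limma adjusted p = 0.427), and Kcnip4 had 24.1, 24.7 and 27.8 in Sham and 21.6, 23.7 and 21.4 in CPIP (-0.19, limma adjusted p = 0.69). Kcnip2 was scattered, from 4.17 to 9.51 FPKM within the CPIP group alone. Kcnc4, a Kv3 subunit of fast-firing neurons, had overlapping groups with means of 30.9 FPKM in Sham and 32.5 in CPIP.

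**Figure D4:**
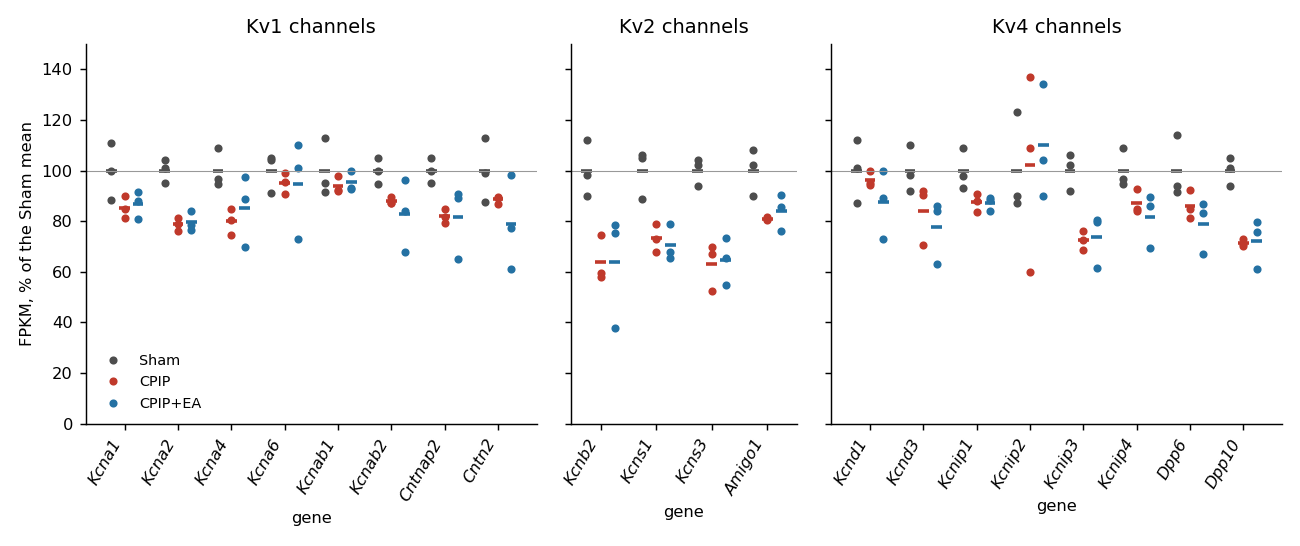
FPKM of alpha subunits and of the proteins that attach to them, as a percentage of the Sham mean of each gene, for Kv1, Kv2 and Kv4 channels. Points are libraries and bars group means; the CPIP means of Kcns3, Kcnb2, Dpp10, Kcnip3 and Kcns1 lay between 63.1% and 73.3%, and that of Kcnd1 at 96.3%.

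Of the auxiliary genes, Kcne2 and Kcne3, single-pass subunits that alter Kv and KCNQ channels, were higher in CPIP without overlap. Kcne2 had 0.85, 1.22 and 1.09 FPKM in Sham and 1.57, 1.64 and 1.64 in CPIP (0.45, limma adjusted p = 0.379), and Kcne3 had 3.57, 4.38 and 4.92 in Sham and 5.18, 5.05 and 6.29 in CPIP (0.33, limma adjusted p = 0.572, and 0.22 without Sham replicate 1). Kcnk13, a tandem-pore channel, was also higher at an unadjusted p under 0.05, at 0.33, 0.36 and 0.36 FPKM in Sham and 0.57, 0.51 and 0.51 in CPIP (0.28, limma adjusted p = 0.509). Its low level makes the fold on this scale smaller than the ratio of means, which was 1.51.

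The 5 KCNQ members, a family that includes the subunits of the M-current, had 0 with an unadjusted p under 0.05 (limma), and their median log2 difference was -0.038. Since 8.66% of all genes had such a p, a count of 0 among so few members is no result about the family. The same holds for the 7 calcium- or sodium-activated members, which had 0 (limma) with 6 lower and 1 higher, from -0.24 to 0.21. Kcnma1, the BK channel that Kcnmb4 joins, was at 5.2, 5.24 and 7.16 FPKM in Sham and 5.33, 4.04 and 5.2 in CPIP. Among 15 inward rectifiers, Kcnj3, a G protein-gated channel, had an unadjusted p under 0.05 and no overlap, with 12.8, 10.0 and 10.6 FPKM in Sham and 9.37, 8.70 and 9.93 in CPIP (-0.24, limma adjusted p = 0.509, and -0.14 without Sham replicate 1). The glial Kcnj10 had 35.2, 32.9 and 36.2 FPKM in Sham, 28.6, 29.9 and 29.8 in the CPIP group and 39.3, 34.4 and 27.6 in the CPIP+EA group. Its CPIP libraries were below all Sham libraries (-0.24, limma adjusted p = 0.627), and its CPIP+EA libraries spanned the range of both. Among 13 tandem-pore members, the median log2 difference was -0.009, and Kcnk18, a channel of nociceptors, had 11.2, 9.02 and 9.98 FPKM in Sham and 7.45, 7.71 and 6.00 in CPIP without overlap (-0.49, limma adjusted p = 0.657). The tandem-pore genes Kcnk1, Kcnk2 and Kcnk3 and the ATP-sensitive channel genes Kcnj8 and Kcnj11 had overlapping groups, with log2 differences from -0.12 to 0.006. Kcnq3, Kcnq5, Kcnj6, Kcnn1, Kcnn3, Kcnn4 and Kcnt2 also had overlapping groups, with log2 differences from -0.24 to 0.21.

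**Figure D5:**
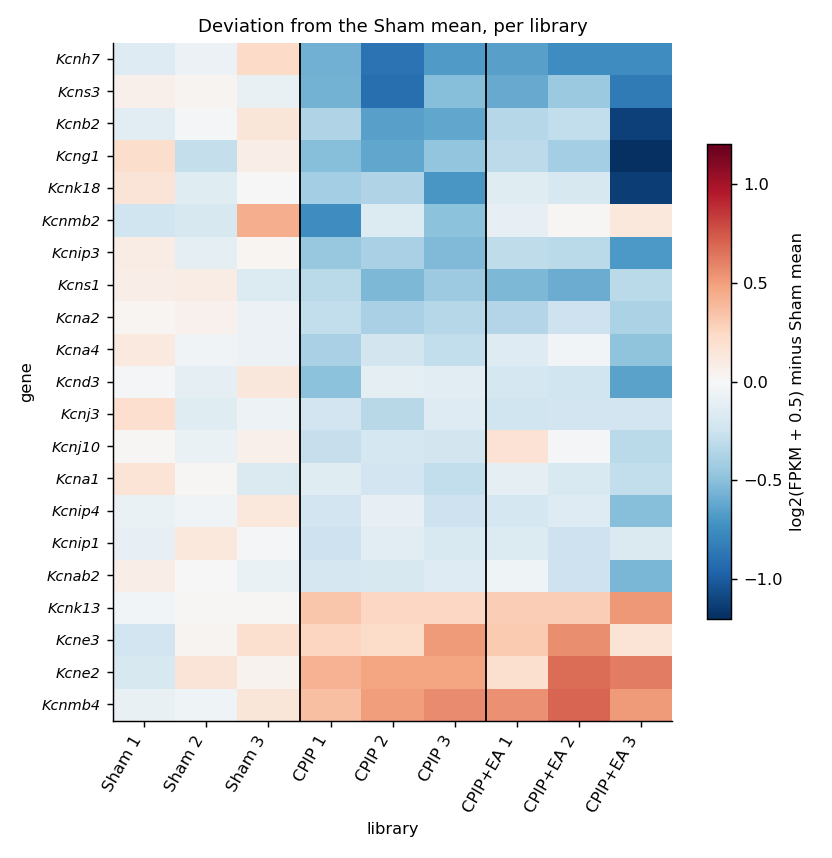
Deviation of each library from the Sham mean in log2(FPKM + 0.5) for 21 members with an unadjusted p under 0.05 or groups that did not overlap between CPIP and Sham (blue, lower; red, higher). Rows are ordered by the difference between CPIP and Sham. The CPIP+EA libraries of Kcnh7, Kcna2, Kcns3, Kcns1 and Kcnip3 lay below all their Sham libraries, as the CPIP libraries did. Those of Kcna1, Kcna4, Kcnab2, Kcnj10, Kcnk18 and Kcnmb2, also lower in CPIP, overlapped Sham. Both groups are set against the same 3 Sham libraries, so the 2 separations are not independent.

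The second comparison asks which members differed with EA in rats that all had CPIP. The same 3 CPIP libraries entered the first comparison, so the values of both are given side by side and no relation between them was computed. None of the 88 members passed the call or an adjusted p under 0.05 (limma), and the share of all genes that did was 0.0%. At an unadjusted p under 0.05 there were 2 members, Kcnmb2 higher and Kcnk9 lower, against 4.29% of all genes (2.07% lower and 2.22% higher). The count was 0 without Sham replicate 2, CPIP replicate 1 or CPIP replicate 3, 1 without Sham replicate 1, Sham replicate 3 or CPIP+EA replicate 1, and 3 without CPIP+EA replicate 3. For 2 members, Kcnmb2 and Kcnj1, all CPIP+EA libraries were above all CPIP libraries, against 4.84% of all genes. Groups without overlap in either direction made up 8.23% of all genes, 3.4% with CPIP+EA lower. Kcnj1, an inward rectifier named because of its values, had means of 0.373 FPKM with EA and 0.28 FPKM without. The log2 difference was below 0 for 44 of the 88 members, against 45.9% of all genes, and the median was -0.001 over members and 0.012 over all genes. Kcnmb2, a BK beta subunit that inactivates the channel, had 2.36, 2.46 and 4.06 FPKM in Sham, 1.52, 2.52 and 1.90 in the CPIP group and 2.65, 2.91 and 3.18 in the CPIP+EA group. Its CPIP+EA libraries were above all CPIP libraries and within the Sham range (CPIP+EA minus CPIP 0.48, SE 0.205, limma adjusted p = 0.996). Kcnk9, an acid-sensitive tandem-pore channel, was at 0.88, 0.58 and 1.61 FPKM in the CPIP group and 0.51, 0.72 and 0.26 in the CPIP+EA group, which overlapped (-0.58, SE 0.25, limma adjusted p = 0.996). The difference of Kcnk9 was -0.32 without CPIP replicate 3 and -0.89 with a pseudocount of 0.1.

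For the 6 genes with the clearest differences from Sham, CPIP+EA and CPIP libraries overlapped. The log2 difference of CPIP+EA minus CPIP was -0.004 for Kcnh7 (95% interval -0.27 to 0.26), 0.016 for Kcna2 (-0.12 to 0.15) and 0.030 for Kcns3 (-0.25 to 0.32). It was -0.052 for Kcns1 (-0.28 to 0.17), 0.018 for Kcnip3 (-0.22 to 0.26) and 0.11 for Kcnmb4 (-0.10 to 0.31). Each of these intervals included 0 and lay within 1.5-fold either way on the log2(FPKM + 0.5) scale. For members of low level, intervals on this scale do not bound the ratio of FPKM.

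The third comparison sets CPIP+EA against Sham and shares libraries with both others. None of the 88 members passed the call (limma), which 0.483% of all genes passed. At an unadjusted p under 0.05 there were 20 members, 16 lower and 4 higher, against 12.2% of all genes (5.63% lower and 6.59% higher). In the same comparison 4 of 4 fibroblast markers were lower, 3 of them at that p (Lum -0.64, Col1a1 -0.84 and Pdgfra -0.39), and of 10 neuron markers 6 were lower and 4 higher, 1 (Rbfox3, -0.55) and 2 of them at that p. All 5 Schwann cell markers (median -0.44) and all 5 smooth muscle and pericyte markers (median -0.22) were lower, with 0 at that p (limma), while all 5 neutrophil and all 5 skeletal muscle markers were higher, also with 0. Glul of satellite glia (-0.19) and Vwf of endothelium (-0.48) were lower and Aif1 of macrophages (0.38) higher at that p. The part of these markers in the result was not tested. At an adjusted p under 0.05 there were 3, against 1.31% of all genes (0.175% lower and 1.14% higher), namely Kcnh7 (-0.71, limma adjusted p = 0.0194), Kcna2 (-0.33, limma adjusted p = 0.0334) and Kcnmb4 (0.58, limma adjusted p = 0.0169). The libraries of the groups did not overlap for 19 members, 16 lower and 3 higher, against 16.2% of all genes (7.32% lower and 8.87% higher). The log2 difference was below 0 for 59 members (67.0%), against 49.6% of all genes, with medians of -0.094 and 0.001. The count of 3 was 1 without Sham replicate 1 and 0 without Sham replicate 2 or without CPIP+EA replicate 2. Kcnmb4 was at 1.53 times its Sham mean, and its adjusted p was between 0.0138 and 0.0839 across the settings. Kcng1 had a log2 difference of -0.73, which was -0.36 without CPIP+EA replicate 3, and Kcnab2 went from -0.28 to -0.15 when that library was left out.

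Genes without a Kcn name that work with these channels were given as a list of 41, all tested. Between CPIP and Sham 0 of them passed the call (limma), 5 were lower and 0 higher at an unadjusted p under 0.05, against 8.66% of all genes (4.06% lower), and the median log2 difference was -0.056. The 5 were Dpp10, Amigo1, Cntnap2, Adam22 and Lgi3. Dpp10, an auxiliary subunit of Kv4 channels, had 63.7, 68.6 and 71.0 FPKM in Sham, 47.6, 49.5 and 48.0 in the CPIP group and 51.4, 54.0 and 41.4 in the CPIP+EA group. Its Sham libraries were above all others (CPIP minus Sham -0.48, limma adjusted p = 0.0644, from 0.00667 without CPIP+EA replicate 3 to 0.242 without CPIP replicate 3). Amigo1, an auxiliary subunit of Kv2 channels, had 42.2, 39.6 and 35.1 FPKM in Sham and 31.3, 31.5 and 31.8 in CPIP (-0.30, limma adjusted p = 0.239). Cntnap2, Adam22 and Lgi3 belong to the complexes that gather Kv1 channels on axons, and their log2 differences were -0.28, -0.21 and -0.335, with overlapping groups for Lgi3 alone, whose difference was -0.20 without Sham replicate 1. Among 7 regulators of channel genes, such as Rest and Dnmt3a, and 10 potassium pumps and cotransporters, 0 had an unadjusted p under 0.05 (limma). Between CPIP+EA and CPIP, 0 of the 41 passed the call (limma), with Abcc9 and Slc12a7 lower and Lgi4 higher at an unadjusted p under 0.05, against 4.29% of all genes (smallest adjusted p 0.996). The log2 difference of Lgi4 was 0.31, and 0.17 without CPIP+EA replicate 3. Between CPIP+EA and Sham 0 passed the call (limma), 10 were lower and 2, Lgi2 and Hdac2, higher at an unadjusted p under 0.05, against 12.2% of all genes (5.63% lower and 6.59% higher).

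Some members may share reads with other transcripts, which was not tested. Of the 88, 42 share coordinates with another gene of the RefSeq annotation, 10 of them with one that the expression table lists. Whole gene spans were compared, without regard to strand or exons. Kcnd2 (0.521 FPKM on average) has a copy, LOC102556178, at 0.209 FPKM, and Kcnk16 (0.222 FPKM) has a copy, LOC679702, at 0.0156 FPKM, and reads could have been split between them.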

How the data were processed

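The 9 DRG libraries were assigned to Sham, CPIP or CPIP+EA by their labels, 3 to each group. The authors filtered reads with SOAPnuke and deposited FPKM values, given to 2 decimals, with 1 column per library. The authors' log2 ratios, P-values and Q-values in the same table were not used. The aligner, genome build and annotation are not given in the sources used here. FPKM values carry no counts, so the number of libraries limits the precision.

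log2(FPKM + 0.5) of genes with a mean of at least 0.1 FPKM was tested with limma 3.58.1 in R 4.3.3 (trend, all 9 libraries in 1 fit, two-sided p, Benjamini-Hochberg over 17187 genes). A call needed an adjusted p under 0.01 and a fold of at least 1.5 or at most 0.667. Log2 differences are on this scale and understate the change of low genes. The fit was tested on simulated data. Tables and figures used Python 3.11.15, numpy 2.4.6, pandas 2.3.3 and matplotlib 3.10.9. Promoters came from a RefSeq table (GRCr8), and proteins were not used here. Some members were counted in the totals but are not reported here by name or drawn.

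Named genes were members past the call, up to 5 members per direction and comparison with the smallest unadjusted p under 0.05, the most abundant member of each family and 38 members known from ganglion or pain work. Kcng1 and Kcnj1 were named because of their values, members near or under the minimum because of their level, and Kcnd2 and Kcnk16 because of their copies. The members and lists were chosen with earlier results of these data known. Alternatives were pseudocounts of 0.1 and 1, no filter or a mean of at least 1 FPKM, quantile normalization, a TPM scale, median centring, no trend, a trend fitted robustly, a block for replicate number, only the 2 groups compared, a threshold of 0.05 and each library left out. The copies of Kcnd2 and Kcnk16 were added after the data were seen.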

Additional observations from a re-analysis of the deposited data

How the results depend on the processing

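The count of members past the call was 0 in all 3 comparisons under every alternative with the same threshold, as was that of the 41 partner genes. An adjusted p under 0.05 with no limit on the fold gave 2 members for CPIP against Sham and 3 for CPIP+EA against Sham. The count of 2 at that threshold between CPIP and Sham was 1 with no filter, a TPM scale, median centring or no trend, 0 with only the 2 groups compared, and 0 to 4 when a library was left out. The count of 16 at an unadjusted p under 0.05 was 9 to 22 when a library was left out. Between CPIP+EA and CPIP, the count of 2 at an unadjusted p under 0.05 was 0 with no filter, 1 with a mean of at least 1 FPKM, quantile normalization, median centring or only the 2 groups compared, and 0 to 3 when a library was left out. Between CPIP+EA and Sham, the count of 3 at an adjusted p under 0.05 was 0 with only the 2 groups compared and 0 to 3 when a library was left out, and the count of 20 at an unadjusted p under 0.05 was 14 to 22. The cause was not tested.

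The replicate numbers did not pair the libraries: deviations of same-numbered libraries correlated between -0.236 and 0.297, and 2 of 9 libraries correlated best with their own number. With the replicate block, the count at an adjusted p under 0.05 was 0 for CPIP against Sham and 1 for CPIP+EA against Sham, and the count at an unadjusted p under 0.05 was 1 between CPIP+EA and CPIP.

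Among single genes, the sign changed 19 times, always between CPIP+EA and CPIP where the difference was near 0. For Kcnh7 it became 0.006091 with quantile normalization and 0.007814 with median centring, and it was -0.08889 to 0.06383 when a library was left out. For Kcna2 it became -0.007697 with quantile normalization and -0.003634 on a TPM scale, and it was -0.02229 to 0.04182 when a library was left out. Leaving out a library gave -0.09274 to 0.1386 for Kcns3 and -0.132 to 0.001438 for Kcns1. For Kcnip3 it became -0.0004932 with quantile normalization and -0.001699 on a TPM scale, and it was -0.04901 to 0.1422 when a library was left out. The other 1257 values of these pairs under an alternative kept their direction and their side of the call.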
